A study of Mus musculus with 12 samples.

Results

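The comparison set the trigeminal ganglion (TG), the group CTG, against the caudal part of the spinal trigeminal nucleus (Sp5C), the group CSp5C, in the libraries whose names begin with C. It rests on 6 of the 12 libraries of the series, 3 per tissue, chosen by their labels alone. All came from C57BL/6 mice, an inbred laboratory strain, aged 8 weeks. The series concerns lasting inflammatory pain of the jaw joint. Its other 6 libraries, STG and SSp5C, are the same tissues under the letter S. The labels do not say what C or S stands for, whether animals were pooled, or whether each library had its own animals. The p-values therefore measure the spread between these libraries, which may be technical. Levels are FPKM, fragments per kilobase of transcript scaled to library depth, as the authors deposited them, summed over the transcripts of each gene. The deposited table lists 21981 protein-coding genes, of which 3412 were at 0 in all 6 libraries and 13100 had a mean of at least 1 FPKM and were tested.

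The ganglion lies outside the brain and holds the cell bodies of the sensory neurons of the face and jaw, wrapped by satellite glia and accompanied by Schwann cells, fibroblasts, vessels and macrophages. Each neuron sends a branch to the skin, teeth or joint and another into the brainstem. Fibres for pain, itch and temperature end in Sp5C, the brainstem continuation of the spinal dorsal horn, whose own neurons are local inhibitory and excitatory cells and whose glia are astrocytes, oligodendrocytes and microglia. The central ends of ganglion axons lie in Sp5C, but their RNA stays mostly in the ganglion. Both samples are bulk tissue, so that fewer cells of a type and less RNA per cell cannot be told apart.

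The files give no read numbers. The step that 1 fragment makes in low values put the depth at about 26.9, 29.7 and 32.4 M (mega) fragments in CTG replicates 1 to 3 and 28.5, 27.7 and 22.7 M in CSp5C, an estimate only. Log2(FPKM + 1) values correlated at 0.974 to 0.985 within a group and at 0.764 to 0.800 between tissues, across genes, which are not independent replicates. Marker genes of neighbouring tissues varied between libraries. Summed over all 14 listed genes, tested or not, neutrophil and bone marrow genes stood at 946, 15.9 and 311 FPKM in CTG and 13.1, 15.5 and 14.8 in CSp5C, so that CTG replicate 1 was highest, CTG replicate 3 next and CTG replicate 2 near the level of Sp5C. Over all listed genes, bone and cartilage genes summed to 132, 32.6 and 25.7 FPKM in CTG and 13.1, 13.6 and 15.03 in CSp5C, and pituitary genes to 52.0, 4.37 and 15.6 FPKM in CTG and 2.27, 1.60 and 3.50 in CSp5C, again highest in CTG replicate 1. In CSp5C the choroid plexus gene Ttr stood at 17.9, 1.22 and 52.1 FPKM and Gabra6, a receptor subunit of cerebellar granule cells, at 2.13, 0.523 and 6.08, both highest in replicate 3. Sperm genes, all under the filter, summed to 9.07, 7.85 and 0.0285 FPKM in CTG and 0, 0 and 0.0397 in CSp5C.

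Expression differed between the tissues for most genes. Of 13100 genes, 3742 (28.6%) were called higher in TG and 3687 (28.1%) lower by limma's moderated test at an adjusted p under 0.05, together 56.7%. A log2 difference of at least 1 was also reached by 1259 genes higher in TG (9.61%) and 1212 lower (9.25%), and these are the backgrounds for every count that follows. The large differences were fewer, with 143 genes higher and 128 lower by 3 or more on the log2 scale, and 24 and 11 by 5 or more. In 65.8% of genes no library of one tissue lay within the range of the other, and the median difference over all genes was 0.004. Lists are counted over the members that passed the low-value filter: 20 of 24 fibroblast genes, 18 of 25 hindbrain factors, 21 of 24 dorsal horn peptide genes, 14 of 18 brain matrix genes, 12 of 17 cholinergic and monoamine genes, 14 of 17 complement genes, 12 of 14 mural genes, 12 of 14 marrow genes, 10 of 12 bone genes, 2 of 11 pituitary genes and all or all but 1 of the other lists of neurons, glia, vessels and housekeeping genes, with Hox and macrophage genes given below. Every difference below is TG minus Sp5C on the log2(FPKM + 1) scale with its standard error and understates the change of low genes. Leaving out any 1 library kept the 2-fold counts between 1188 and 1314 and between 1167 and 1241.

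**Figure D1:**
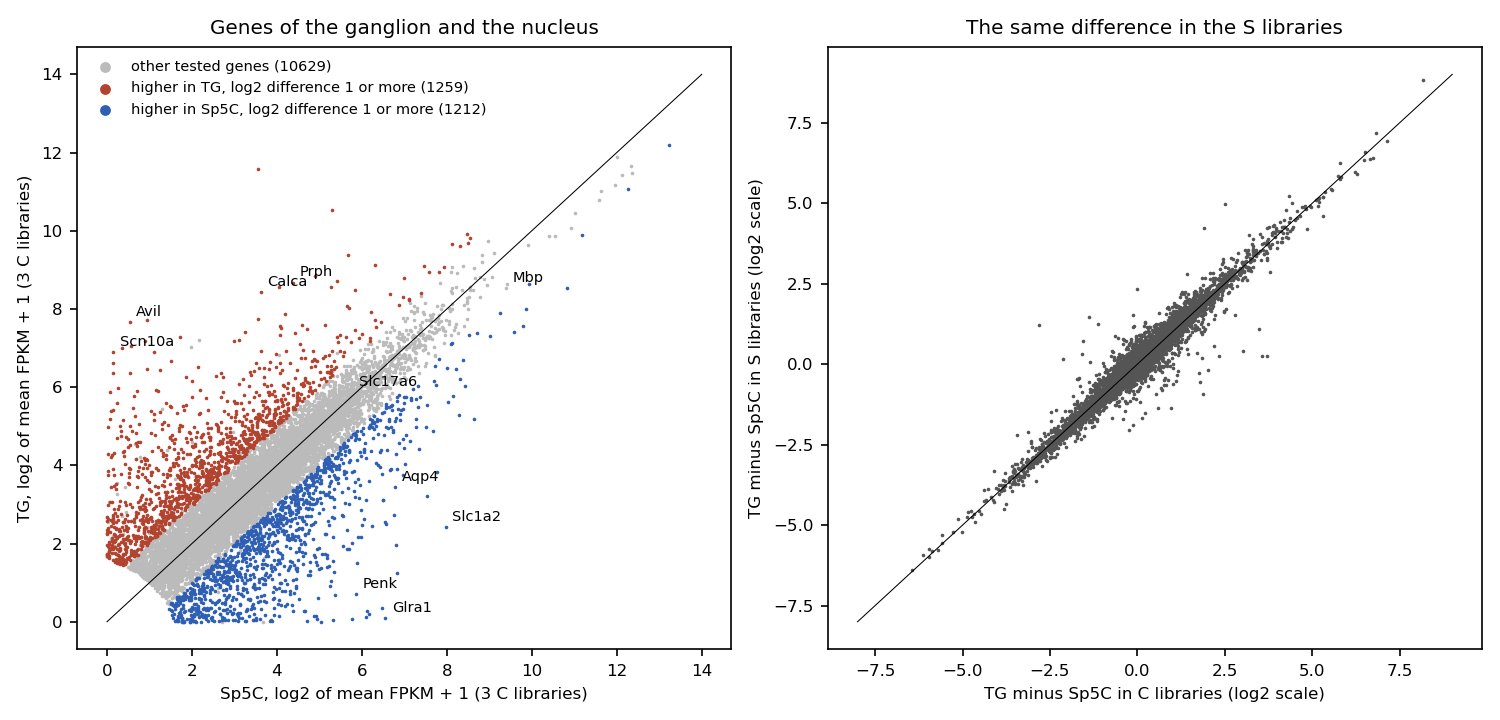
Left, log2 of the mean FPKM + 1 of the 3 CTG libraries against that of the 3 CSp5C libraries for the 13100 tested genes, red where called higher in TG and blue where called higher in Sp5C at a log2 difference of at least 1, with the line of equal levels. Right, the TG minus Sp5C difference in the S libraries against that in the C libraries for the genes tested in both, where 2217 genes called in both at that size lie on the same side and 0 on opposite sides.

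Genes of pain-sensing neurons were mostly far higher in TG. Of 12 genes of peptidergic nociceptors, the neurons that release CGRP and substance P, 10 were called higher in TG and 1 lower, with a median difference of 3.38 (3.16 in the S libraries). Scn10a, the sodium channel Nav1.8 of nociceptors, stood at 122, 124 and 109 FPKM in CTG and 0.0598, 0.113 and 0.152 in CSp5C. The lowest TG library lay far above every Sp5C library (log2 difference 6.75 ± 0.07, adjusted p = 7.69e-08). Its companion Scn11a, Nav1.9, stood at 51.3, 62.4 and 58.9 FPKM in CTG and 0.0758, 0.0241 and 0.0747 in CSp5C (log2 difference 5.78 ± 0.09, adjusted p = 1.30e-07). Prdm12, a transcription factor that nociceptors need to form, stood at 41.0, 42.6 and 38.5 FPKM in CTG and 0.0846, 0.0295 and 0.0711 in CSp5C (log2 difference 5.30 ± 0.07, adjusted p = 7.69e-08). These 3 genes were near 0 in Sp5C in every library.

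Transmitter and receptor genes of the same neurons were also higher in TG, and several were measurable in Sp5C too. Calca, the precursor of CGRP, stood at 370.1, 368 and 296 FPKM in CTG and 12.9, 5.21 and 15.9 in CSp5C (log2 difference 4.92 ± 0.37, adjusted p = 6.84e-05). Sp5C replicate 2 was the lowest, as it was for Calcb, the second CGRP gene, and for Prph. Tac1, which encodes substance P, stood at 132, 146 and 130.3 FPKM in CTG and 14.9, 27.9 and 23.7 in CSp5C (log2 difference 2.61 ± 0.21, adjusted p = 9.63e-05), and its groups did not overlap. Trpv1, the receptor for capsaicin and noxious heat, stood at 10.8, 14.3 and 12.3 FPKM in CTG and 0, 0.0102 and 0.0485 in CSp5C. It was at or near 0 in Sp5C and differed by 3.71. Adcyap1 and Gal, precursors of the peptides PACAP and galanin, differed by 0.80 and 1.03. Nts, neurotensin, was the member called lower in TG, at 1.08, 1.10 and 2.12 FPKM in CTG and 2.95, 4.61 and 5.75 in CSp5C (log2 difference -1.15 ± 0.24, adjusted p = 0.00644), while Kit was not called (log2 difference 0.07 ± 0.13, adjusted p = 0.662) and is taken up again with its transcripts.

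All 15 genes listed for non-peptidergic and itch neurons passed the test, 14 of them higher in TG, with a median of 2.35. Mrgprd, the receptor that marks non-peptidergic nociceptors of the skin, stood at 29.4, 41.1 and 35.5 FPKM in CTG and 0.0552, 0.0579 and 0.0562 in CSp5C (log2 difference 5.09 ± 0.12, adjusted p = 6.88e-07). P2rx3, an ATP-gated channel, stood at 50.9, 53.1 and 58.1 FPKM in CTG and 0.513, 0.401 and 0.713 in CSp5C (log2 difference 5.16 ± 0.10, adjusted p = 2.48e-07). Both were low in Sp5C throughout and their groups stood far apart. Ret, the receptor of GDNF family signals, stood at 153, 182 and 164 FPKM in CTG and 19.0, 16.3 and 25.8 in CSp5C (log2 difference 2.99 ± 0.16, adjusted p = 1.31e-05), and Lpar3, a lysophosphatidic acid receptor, at 8.32, 12.5 and 10.7 FPKM in CTG and 0.163, 0.221 and 0.0864 in CSp5C. Itch genes were lower in level. Their Mrgpr receptors belong to a family of close copies that may share reads. Mrgpra3, a chloroquine receptor, stood at 3.55, 3.57 and 4.40 FPKM in CTG and 0.0187, 0 and 0 in CSp5C, and Nppb, a peptide transmitter of itch, at 3.29, 5.05 and 5.03 and 0.179, 0 and 0. Mrgprx1 was at 5.86, 5.25 and 5.003 in CTG and listed at 0 in all 3 CSp5C libraries. Sst, somatostatin, which itch neurons share with inhibitory and excitatory neurons of the dorsal horn, went the other way, at 5.28, 2.59 and 5.64 FPKM in CTG and 59.1, 87.6 and 76.8 in CSp5C (log2 difference -3.81 ± 0.27, adjusted p = 5.10e-05).

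Genes of cold, touch and body-position neurons were more mixed, with 9 of 15 higher in TG, 3 lower and a median of 0.64. The transduction channels were the highest. Piezo2, the mechanically gated channel of touch, stood at 57.6, 62.0 and 56.2 FPKM in CTG and 0.685, 0.759 and 0.430 in CSp5C (log2 difference 5.20 ± 0.10, adjusted p = 2.27e-07). Trpm8, the cold and menthol receptor, stood at 37.6, 35.4 and 39.3 FPKM in CTG and 1.10, 0.208 and 0.388 in CSp5C (log2 difference 4.66 ± 0.20, adjusted p = 4.94e-06). Each TG library held more than 10 FPKM of either channel and no Sp5C library did. Pvalb, a calcium-binding protein of proprioceptors, is also made by many brainstem interneurons and stood at 33.4, 30.8 and 39.0 FPKM in CTG and 107, 104 and 116 in CSp5C (log2 difference -1.64 ± 0.10, adjusted p = 1.69e-05), and Kcnc1, a fast potassium channel of the same kinds of cells, at 10.4, 11.3 and 11.6 FPKM in CTG and 65.7, 73.5 and 73.1 in CSp5C (log2 difference -2.57 ± 0.07, adjusted p = 1.04e-06). Ntrk2, the BDNF receptor, was lower in TG by less than 1 (log2 difference -0.96 ± 0.06, adjusted p = 2.54e-05) and Ntrk3, the receptor of NT-3, higher (log2 difference 0.64 ± 0.11, adjusted p = 0.00245).

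The transcription factors of sensory ganglia were mostly higher in TG, with 13 of 17 tested called higher in TG by 1 or more, 0 called lower and a median of 2.40. Isl2, a LIM homeodomain factor, stood at 44.2, 48.4 and 48.5 FPKM in CTG and 0.101, 0.0197 and 0.409 in CSp5C (log2 difference 5.36 ± 0.13, adjusted p = 6.84e-07) and Tlx2 at 26.1, 33.3 and 32.9 FPKM in CTG and 0.0230, 0 and 0.0292 in CSp5C (log2 difference 4.96 ± 0.11, adjusted p = 4.14e-07). Isl1, which acts with Pou4f1 in sensory neuron identity, stood at 25.2, 29.3 and 28.2 FPKM in CTG and 1.03, 0.246 and 1.83 in CSp5C, and Pou4f1 at 29.5, 32.9 and 32.1 FPKM in CTG and 0.944, 2.56 and 1.66 in CSp5C (log2 difference 3.62 ± 0.21, adjusted p = 1.88e-05). Runx1 and Runx3, which divide nociceptors from proprioceptors, differed by 3.28 and 1.78. The factors not called were Eya1, Eya2, Shox2 and Tshz2, with differences of -0.35, -0.32, 0.06 and 0.20. With the replicate number as a block Eya1 and Eya2 were called lower in TG (adjusted p = 0.0473 and 0.0390), and Eya1 also without CTG replicate 1 (adjusted p = 0.0395).

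**Figure D2:**
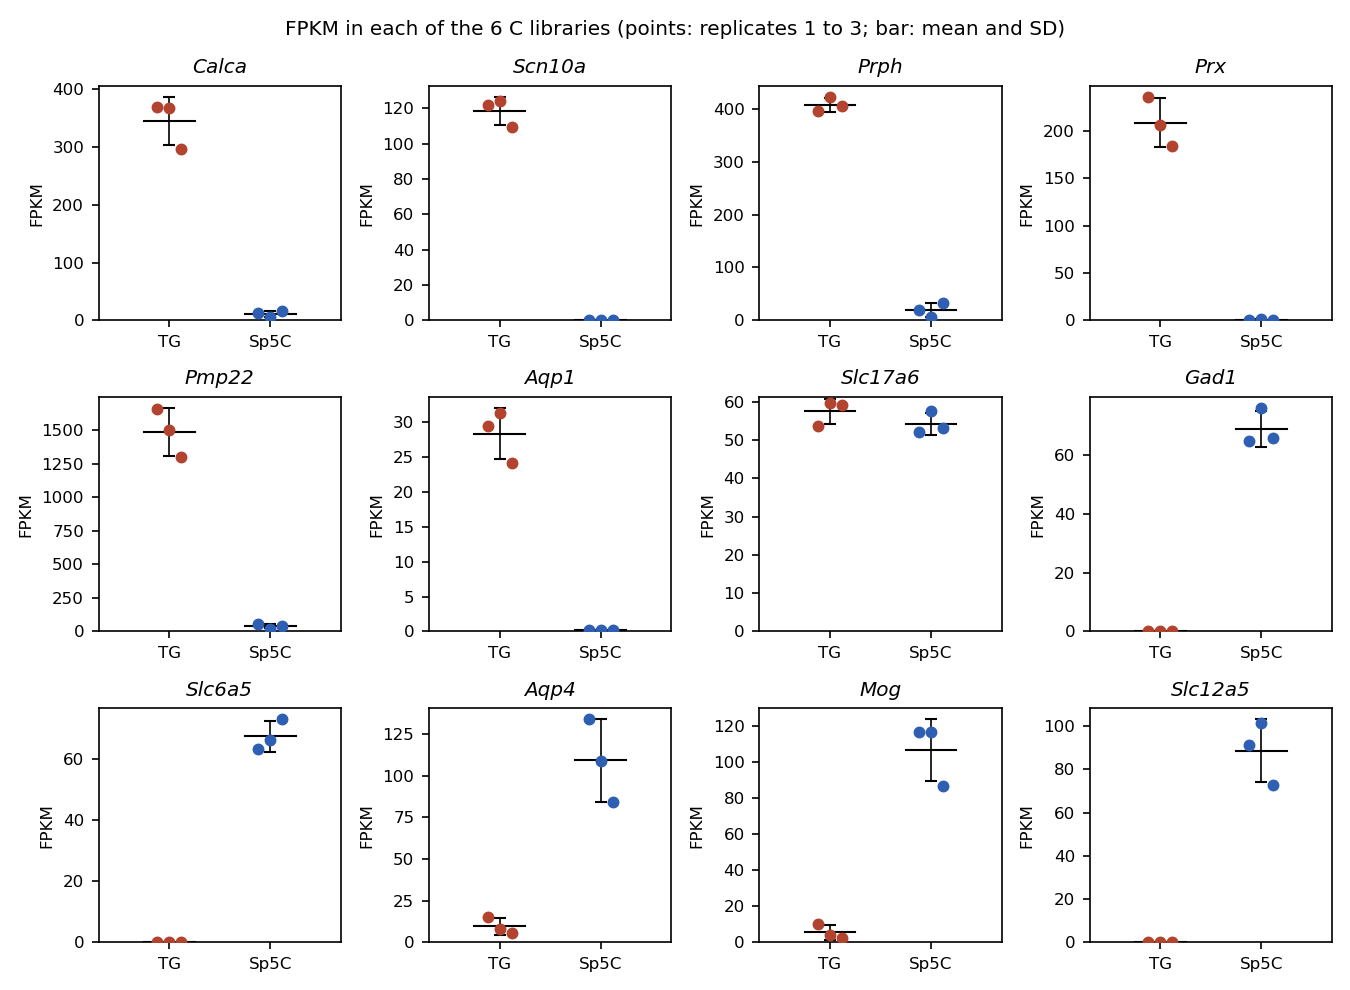
FPKM of 12 genes, one to a panel, on linear axes from 0 that differ between panels, with red points for the 3 CTG libraries, blue points for the 3 CSp5C libraries, and bars for the mean and SD. All red points lie above the blue points for Calca, Scn10a, Prph, Prx, Pmp22 and Aqp1, all blue points lie above the red points for Gad1, Slc6a5, Aqp4, Mog and Slc12a5, and the points of Slc17a6 overlap.

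Cytoskeletal and surface genes of long peripheral axons stood high in both tissues. Of 24 genes, 14 were higher in TG, 4 lower and the median was 0.83. Avil encodes advillin, which binds actin in sensory neurons, and stood at 199.9, 186 and 220.3 FPKM in CTG and 0.270, 0.378 and 0.708 in CSp5C (log2 difference 7.14 ± 0.12, adjusted p = 1.94e-07), and Prph, the intermediate filament peripherin, at 395, 422 and 405 FPKM in CTG and 19.3, 7.17 and 33.2 in CSp5C (log2 difference 4.52 ± 0.49, adjusted p = 3.49e-04). The Sp5C values of Prph ranked in the order of those of Chat, the enzyme that makes acetylcholine, which stood at 4.86, 1.71 and 9.23 in the same libraries and marks motor neurons among other cells. Those of Calca, given above, ranked in this order too. The source of Prph RNA in Sp5C was not tested. The 3 neurofilament genes Nefl, Nefm and Nefh were higher in TG by 1.25 to 1.36, with Nefl at 752, 881 and 1065 FPKM in CTG and 375, 331 and 421 in CSp5C. Ina, alpha-internexin, the filament of central neurons, was lower in TG, at 4.51, 5.63 and 4.56 FPKM in CTG and 91.2, 95.1 and 89.9 in CSp5C (log2 difference -3.98 ± 0.08, adjusted p = 3.91e-07), and so was Map2, a dendrite protein (log2 difference -1.85 ± 0.18, adjusted p = 1.91e-04). Gap43, Kif1a, Thy1, Mapt, Stmn1 and Stmn3 were not called, apart from Stmn3 without CTG replicate 1 (adjusted p = 0.0449).

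Genes of peripheral myelin, which Schwann cells make, were mostly higher in TG. Prx, periaxin, stood at 236, 207 and 185 FPKM in CTG and 0.884, 1.60 and 0.258 in CSp5C (log2 difference 6.83 ± 0.26, adjusted p = 4.51e-06), and Pmp22 at 1654, 1503 and 1297 FPKM in CTG and 54.1, 21.6 and 39.9 in CSp5C (log2 difference 5.32 ± 0.32, adjusted p = 2.65e-05). For both, CTG replicate 1 was the highest library and every TG library exceeded every Sp5C library. Of the 20 genes of the list, 14 were higher in TG and 4 lower. Among the genes called lower were Mag, Gjb1 and Mbp, which oligodendrocytes use too, and Mbp stood at 475, 317 and 315 FPKM in CTG and 741, 701 and 579 in CSp5C (log2 difference -0.89 ± 0.18, adjusted p = 0.00589). Sox10, the factor of both kinds of myelinating cell, was higher in TG by 0.99, and Ngfr, the low-affinity neurotrophin receptor of Schwann cells and nociceptors, by 5.57.

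Satellite glia share most of their genes with astrocytes, and their list was split, with 6 of 15 higher in TG and 8 lower. Fabp7, a fatty acid binding protein, stood at 165, 157 and 209 FPKM in CTG and 39.2, 17.6 and 18.9 in CSp5C (log2 difference 2.85 ± 0.31, adjusted p = 3.48e-04), Cdh19 at 25.5, 27.6 and 24.4 FPKM in CTG and 5.44, 7.56 and 6.04 in CSp5C (log2 difference 1.88 ± 0.11, adjusted p = 1.89e-05), and Sfrp5 at 52.5, 52.3 and 53.9 FPKM in CTG and 7.33, 4.52 and 4.39 in CSp5C (log2 difference 3.10 ± 0.17, adjusted p = 1.31e-05). Kcnj10, the potassium channel Kir4.1 of both glia, was lower in TG, at 21.3, 19.9 and 20.5 FPKM in CTG and 172, 169 and 145 in CSp5C (log2 difference -2.91 ± 0.08, adjusted p = 1.05e-06), as were Glul and Gja1. Apoe and S100b were higher in TG by 0.77 and 0.72, and the adjusted p of Apoe was 0.0520 without CSp5C replicate 2.

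Connective tissue genes were higher in TG. Of 20 fibroblast genes, 16 were higher, 2 lower and the median was 2.73 (3.17 in the S libraries). Col1a1, a chain of type I collagen, stood at 199, 148 and 95.6 FPKM in CTG and 10.3, 9.06 and 3.63 in CSp5C (log2 difference 4.14 ± 0.41, adjusted p = 2.33e-04), and Dcn, the proteoglycan decorin, at 185, 195 and 166 FPKM in CTG and 25.3, 14.96 and 7.94 in CSp5C (log2 difference 3.55 ± 0.37, adjusted p = 2.88e-04). The groups did not overlap, and CSp5C replicate 3 was the lowest library for both. Ogn, osteoglycin, differed by 4.32. The members called lower were Slc2a1 and Pdgfra, which endothelium and oligodendrocyte precursors also express. Of 17 basal lamina genes, 14 were higher in TG. Lamb1, a laminin chain, stood at 56.8, 40.4 and 37.6 FPKM in CTG and 2.37, 2.46 and 2.52 in CSp5C (log2 difference 3.71 ± 0.15, adjusted p = 3.84e-06) and Hspg2, perlecan, at 63.5, 60.4 and 49.4 FPKM in CTG and 6.50, 6.34 and 4.23 in CSp5C (log2 difference 3.15 ± 0.16, adjusted p = 1.13e-05), whereas Lama1 was lower in TG (log2 difference -0.80 ± 0.15, adjusted p = 0.00407).

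Of 17 genes of border and nerve macrophages 11 passed the filter, and these were called higher in TG by 1 or more, with a median of 1.66. All 17 together summed to 205, 177 and 175 FPKM in CTG and 65.2, 40.0 and 24.6 in CSp5C. Mrc1, the mannose receptor, stood at 8.02, 8.65 and 8.09 FPKM in CTG and 4.13, 1.61 and 0.887 in CSp5C (log2 difference 1.66 ± 0.35, adjusted p = 0.00698), and Cd74, the invariant chain of class II antigen presentation, at 65.3, 58.4 and 48.7 FPKM in CTG and 22.4, 13.3 and 2.56 in CSp5C (log2 difference 2.45 ± 0.66, adjusted p = 0.0192). The groups did not overlap, although CSp5C replicate 1 held far more of both genes than CSp5C replicate 3. The call of Cd74 was lost without CTG replicate 1 or 2 (adjusted p = 0.0513 to 0.0622). Microglia genes, by contrast, were called lower in TG for 7 of 14 and higher for 1. Their summed levels overlapped, at 80.4 to 88.9 FPKM in CTG and 78.1 to 158.9 in CSp5C. CSp5C replicate 3 lay below every CTG library in this sum. The groups did not overlap for 7 of the 14 genes, against 65.8% of all tested genes. Sall1, a factor particular among macrophages to microglia, stood at 0.775, 0.382 and 0.226 FPKM in CTG and 8.08, 6.09 and 5.83 in CSp5C (log2 difference -2.40 ± 0.18, adjusted p = 4.50e-05), P2ry12, a purine receptor, at 2.31, 1.80 and 2.88 FPKM in CTG and 9.75, 7.60 and 6.91 in CSp5C (log2 difference -1.45 ± 0.16, adjusted p = 3.05e-04, but 0.40 from its leading transcript alone), and Tmem119 at 2.75, 1.29 and 1.33 FPKM in CTG and 8.48, 5.99 and 3.60 in CSp5C (log2 difference -1.31 ± 0.31, adjusted p = 0.0111). Markers that both kinds of cell carry, Aif1 and Csf1r, were not called, at 0.03 and -0.59, although Csf1r was called lower without CSp5C replicate 3 (adjusted p = 0.0400). Among 14 complement genes 5 were higher in TG, and 6 with the replicate block. They were led by Cd55, a surface inhibitor of complement, at 72.3, 86.6 and 84.2 FPKM in CTG and 4.87, 4.93 and 6.32 in CSp5C (log2 difference 3.69 ± 0.11, adjusted p = 1.30e-06), and Serping1, the C1 inhibitor (log2 difference 2.36 ± 0.42, adjusted p = 0.00354). C1qa, C1qb and C1qc were not called.

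Higher in Sp5C were most genes of fast inhibition, the signalling by GABA and glycine that gates incoming pain signals. Of 22 genes, 19 were lower in TG, 1 higher and the median was -2.53. The enzyme Gad1, which makes GABA, stood at 0.170, 0.211 and 0.219 FPKM in CTG and 64.9, 76.1 and 65.8 in CSp5C (log2 difference -5.86 ± 0.08, adjusted p = 7.69e-08). Slc6a5, the glycine transporter of glycinergic neurons, stood at 0.0913, 0.115 and 0.0710 FPKM in CTG and 63.2, 66.1 and 73.1 in CSp5C (log2 difference -5.97 ± 0.08, adjusted p = 7.69e-08), and Slc32a1, which loads both transmitters into vesicles, at 0.0199, 0.0607 and 0.0450 FPKM in CTG and 47.8, 54.7 and 58.1 in CSp5C (log2 difference -5.71 ± 0.09, adjusted p = 1.30e-07). No TG library reached 1 FPKM of any of these 3.

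The receptors were not as evenly divided. Glra1, the glycine receptor subunit of adult brainstem and spinal cord, stood at 0.0364, 0.0276 and 0.142 FPKM in CTG and 84.6, 88.9 and 105 in CSp5C (log2 difference -6.45 ± 0.10, adjusted p = 1.30e-07), among the lowest differences of all genes. Its partner Glrb differed by -1.18. Of the GABA-A receptor subunits, which ganglion neurons also carry, Gabrb1 differed by -2.81, and Gabra2 was not called (-0.22) except with the replicate block (adjusted p = 0.0199). Gabbr2, a GABA-B receptor subunit, was the member called higher in TG, at 37.5, 39.4 and 45.4 FPKM in CTG and 31.9, 31.4 and 31.5 in CSp5C (log2 difference 0.35 ± 0.08, adjusted p = 0.00810).

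Chloride transport divided likewise. Slc12a5, the chloride exporter KCC2 of central neurons, stood at 0.257, 0.279 and 0.259 FPKM in CTG and 91.3, 102 and 72.7 in CSp5C (log2 difference -6.13 ± 0.12, adjusted p = 2.94e-07). Slc12a2, the importer NKCC1, stood at 51.6, 53.2 and 45.5 FPKM in CTG and 55.1, 51.5 and 49.0 in CSp5C (log2 difference -0.05 ± 0.08, adjusted p = 0.622), and its groups overlapped. Among 25 genes of water, ion and chloride transport, 12 were higher in TG and 10 lower, with Fxyd2, a regulator of the sodium pump, at 111, 144 and 142 FPKM in CTG and 0.644, 0.578 and 0.187 in CSp5C (log2 difference 6.51 ± 0.16, adjusted p = 7.16e-07). Slc12a7, an exporter of the KCC type, was higher in TG by 1.69.

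Of 25 tested glutamate genes, 20 were lower in TG, 1 higher and the median was -1.26. The receptors were the ones far apart. Grin2a, an NMDA receptor subunit, stood at 0.0521, 0.0359 and 0.0473 FPKM in CTG and 26.6, 31.5 and 30.6 in CSp5C (log2 difference -4.86 ± 0.09, adjusted p = 2.18e-07), and Grm5, a metabotropic receptor, at 0.725, 0.565 and 0.585 FPKM in CTG and 14.97, 20.9 and 20.3 in CSp5C (log2 difference -3.59 ± 0.13, adjusted p = 2.78e-06). Grin1, the subunit shared by all NMDA receptors, was lower in TG by less, at 27.0, 33.5 and 38.9 FPKM in CTG and 68.5, 73.6 and 80.2 in CSp5C (log2 difference -1.15 ± 0.13, adjusted p = 4.10e-04). No difference was called over the 6 libraries for 2 vesicular transporters of glutamate. Slc17a6, VGLUT2, was at 53.7, 59.6 and 59.2 FPKM in CTG and 52.2, 57.6 and 53.2 in CSp5C (log2 difference 0.08 ± 0.07, adjusted p = 0.358) with overlapping groups, and Slc17a7, VGLUT1, differed by 0.39 and was not called except without CTG replicate 1 (adjusted p = 0.0155). Grik1, a kainate receptor subunit of sensory neurons, was the member higher in TG, at 23.7, 28.3 and 23.2 FPKM in CTG and 6.70, 8.16 and 5.23 in CSp5C (log2 difference 1.77 ± 0.15, adjusted p = 9.22e-05).

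Peptides and calcium-binding proteins of dorsal horn neurons were lower in TG for 16 of 21 tested genes, and without CSp5C replicate 3 for 13 of 20. Penk, the precursor of the enkephalins, stood at 0.868, 0.421 and 0.619 FPKM in CTG and 42.6, 63.4 and 65.2 in CSp5C (log2 difference -5.13 ± 0.18, adjusted p = 2.60e-06), and CSp5C replicate 1 was the lowest of its group. Pdyn, the precursor of dynorphin, stood at 0.155, 0.0855 and 0.191 FPKM in CTG and 4.19, 7.18 and 4.61 in CSp5C (log2 difference -2.44 ± 0.18, adjusted p = 4.78e-05), and Npy, neuropeptide Y, at 0, 0.118 and 0.181 FPKM in CTG and 12.4, 15.9 and 18.1 in CSp5C (log2 difference -3.89 ± 0.15, adjusted p = 2.84e-06). Trh was listed at 0 in all 3 CTG libraries and at 2.19, 4.07 and 4.61 in CSp5C. Tacr1, the substance P receptor, whose ligand is made in TG, stood at 0.232, 0.0945 and 0.0560 FPKM in CTG and 2.20, 2.06 and 2.81 in CSp5C (log2 difference -1.57 ± 0.13, adjusted p = 8.70e-05). The opioid receptor genes Oprm1, Oprd1 and Oprk1 differed by 0.36, -0.41 and -0.61, and the first was not called except with the replicate block (adjusted p = 0.0188). The call of Oprd1 was lost without CSp5C replicate 1 or 2 and that of Oprk1 without CSp5C replicate 2 or 3, with adjusted p of 0.0649 to 0.0764 and 0.0627 to 0.0659. The members called higher in TG were Tac1, Calb1 and Npy1r, of which Tac1 alone was called without CSp5C replicate 3. The call of Calb1 was also lost without CTG replicate 2 or 3 or CSp5C replicate 1 (adjusted p = 0.0726 to 0.0893 over the 4 libraries), and that of Npy1r without CTG replicate 3 or CSp5C replicate 1 (0.0514 to 0.0643 over the 3).

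Hox genes, which mark levels of the hindbrain and spinal cord, were higher in Sp5C. Of 27 Hox genes listed, 16 passed the filter, 15 were called lower in TG and 1 higher. Hoxb5 was listed at 0 in all 3 CTG libraries and stood at 25.7, 39.7 and 29.4 FPKM in CSp5C, Hoxa5 stood at 0, 0.0345 and 0.00727 FPKM in CTG and 19.3, 32.2 and 23.7 in CSp5C and Hoxc4 at 0.0179, 0 and 0.0148 FPKM in CTG and 12.3, 17.3 and 11.7 in CSp5C. The exception was Hoxd1, a gene of nociceptors, at 8.71, 10.5 and 16.5 FPKM in CTG and 0.546, 0.389 and 0.360 in CSp5C (log2 difference 3.13 ± 0.21, adjusted p = 3.41e-05). Hoxb8 was at 0.184, 3.19 and 3.83 in CSp5C and Hoxb6 at 2.53, 11.8 and 8.23, both lowest in replicate 1. The call of Hoxb8 was lost with the replicate block (adjusted p = 0.0550) and when any 1 CTG library was left out (0.101 to 0.105). Among 18 tested factors of hindbrain and dorsal horn neurons, 14 were lower in TG. Lbx1, which specifies dorsal horn association neurons, stood at 0.0149, 0.0331 and 0 FPKM in CTG and 7.38, 10.4 and 8.402 in CSp5C (log2 difference -3.25 ± 0.13, adjusted p = 3.48e-06), Pax2, a factor of inhibitory neurons, at 0.182, 0.159 and 0.139 FPKM in CTG and 6.70, 8.28 and 8.28 in CSp5C (log2 difference -2.91 ± 0.11, adjusted p = 2.63e-06), and Lmx1b, a factor of excitatory ones, at 0.198, 0.294 and 0.255 FPKM in CTG and 2.26, 3.66 and 3.18 in CSp5C (log2 difference -1.68 ± 0.15, adjusted p = 1.17e-04). Maf and Mafa, which touch neurons of the ganglion share, were higher in TG by 1.95 and 1.83.

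Astrocyte genes were called lower in TG without exception, 18 of 18 by 1 or more, with a median of -2.48 and summed levels of 317, 242 and 228 FPKM in CTG and 1778, 1702 and 1429 in CSp5C. Slc1a2, the main glutamate transporter of astrocytes, stood at 6.04, 4.25 and 2.82 FPKM in CTG and 249.96, 248 and 252 in CSp5C (log2 difference -5.59 ± 0.21, adjusted p = 3.61e-06), Aqp4, the water channel of their endfeet, at 15.5, 8.33 and 5.62 FPKM in CTG and 134, 109 and 84.5 in CSp5C (log2 difference -3.43 ± 0.35, adjusted p = 2.61e-04), and Gfap at 44.8, 26.9 and 14.2 FPKM in CTG and 283, 237 and 95.01 in CSp5C (log2 difference -2.79 ± 0.54, adjusted p = 0.00482). Oligodendrocyte genes were lower for 18 of 20, with a median of -3.25. Mog stood at 10.3, 4.35 and 2.32 FPKM in CTG and 117, 117 and 87.1 in CSp5C (log2 difference -4.19 ± 0.43, adjusted p = 2.78e-04), Mobp at 15.4, 5.78 and 3.61 FPKM in CTG and 166, 215 and 173 in CSp5C (log2 difference -4.53 ± 0.44, adjusted p = 2.33e-04) and Opalin at 0.312, 0.0185 and 0.0490 FPKM in CTG and 17.9, 13.4 and 11.5 in CSp5C (log2 difference -3.75 ± 0.18, adjusted p = 7.00e-06). CTG replicate 1 was the highest TG library for each of these genes of central glia, and still lay below every Sp5C library. Of 10 precursor genes, 9 were lower in TG, with Olig2 at 0.735, 0.251 and 0.130 FPKM in CTG and 15.7, 14.8 and 15.04 in CSp5C (log2 difference -3.59 ± 0.16, adjusted p = 5.43e-06).

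The 2 lists of extracellular matrix genes differed in their main direction. Most basal lamina genes were higher in TG, as given above. Of 14 tested genes of perineuronal nets and brain matrix, 10 were lower in TG and 2 higher. All 18 genes listed for these nets and matrix summed to 519, 573 and 642 FPKM in CTG and 578, 583 and 585 in CSp5C, and these sums overlapped. Tnr, tenascin R, stood at 3.09, 3.26 and 2.99 FPKM in CTG and 23.3, 23.0 and 25.7 in CSp5C (log2 difference -2.60 ± 0.07, adjusted p = 9.68e-07), and Ncan, neurocan, at 4.56, 4.33 and 4.46 FPKM in CTG and 19.2, 18.8 and 18.4 in CSp5C (log2 difference -1.86 ± 0.06, adjusted p = 1.36e-06). Reln, reelin, was higher in TG, at 23.7, 25.3 and 21.6 FPKM in CTG and 8.45, 8.07 and 9.10 in CSp5C (log2 difference 1.36 ± 0.08, adjusted p = 1.54e-05), as was the proteoglycan Spock2 (log2 difference 0.81 ± 0.10, adjusted p = 6.20e-04). Genes of cholinergic and monoamine neurons were lower in TG for 8 of 12 and higher for 3, each of the 3 by 1 or more and the highest Prph (4.52). All 17 listed genes summed to 467, 509 and 490 FPKM in CTG and 131, 102 and 195 in CSp5C, so the sum was higher in TG. The cholinergic genes varied within CSp5C. Slc18a3, the vesicular transporter of acetylcholine, was at 13.4, 3.78 and 22.8 and Slc5a7, the choline transporter, at 17.6, 5.85 and 28.7, always lowest in replicate 2 and highest in replicate 3.

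Vessels differed less. Of 17 genes of endothelium of any tissue, 2 were higher in TG, 4 lower and the median was -0.11. Pecam1 and Cdh5 were not called, at -0.10 and 0.23. Genes of the blood-brain barrier were lower in TG for 9 of 16 and higher for 3, and their summed level was 551, 578 and 643 FPKM in CTG and 492, 451 and 454 in CSp5C, higher on average in TG. Among those lower were Slc2a1, the glucose transporter, at 18.8, 22.7 and 21.1 FPKM in CTG and 44.3, 42.0 and 40.6 in CSp5C (log2 difference -0.99 ± 0.08, adjusted p = 7.00e-05), and Ocln, occludin, at 0.858, 0.934 and 0.726 FPKM in CTG and 4.02, 4.09 and 4.29 in CSp5C (log2 difference -1.48 ± 0.09, adjusted p = 2.08e-05). Mural cell genes were lower for 5 of 12 and higher for 1, with a median of -0.42, and of 0.05 in the S libraries. Acta2 was not called (-0.49) except as lower without CTG replicate 3 (adjusted p = 0.00288).

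**Figure D3:**
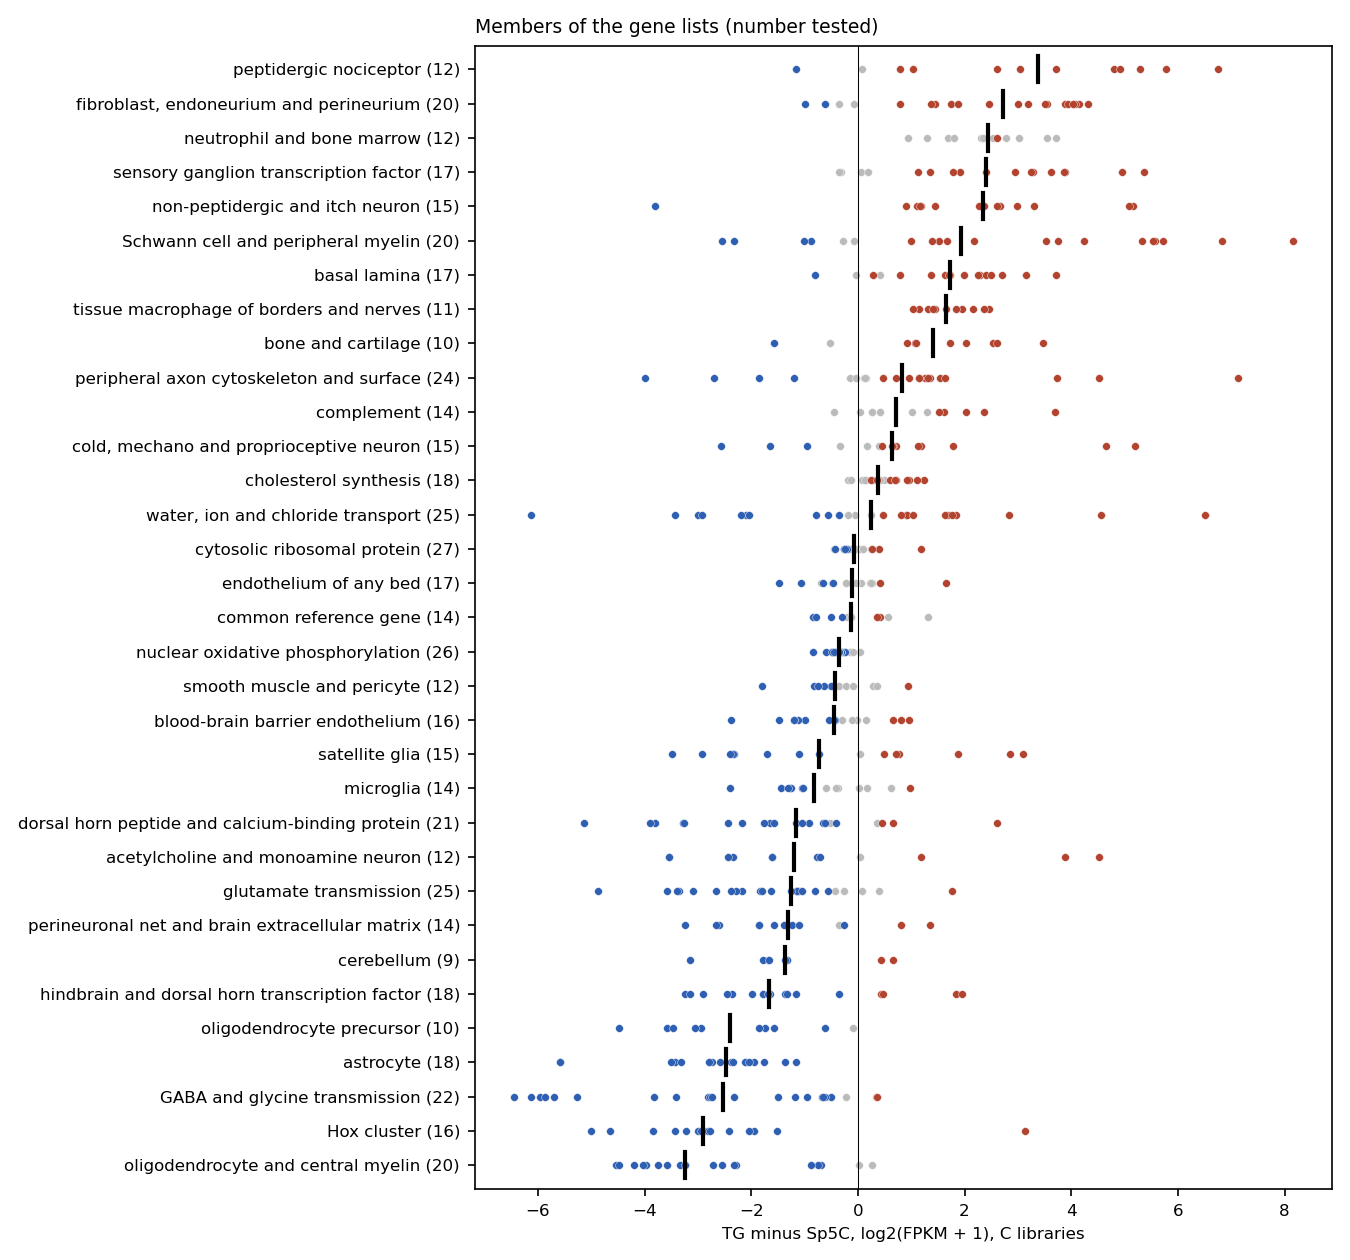
Log2 difference of TG minus Sp5C in the C libraries for the tested members of each gene list with at least 9 tested members, red where called higher in TG, blue where called lower and grey where not called, with a bar at the list's median. The number tested stands beside each name, lists are ordered by their median, and members under the filter are not drawn.

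Housekeeping lists differed by little. Of 26 nuclear genes of oxidative phosphorylation, 18 were lower in TG and none higher, with a median of -0.36 and 0 past a difference of 1. Sdha, a subunit of complex II, stood at 68.8, 69.9 and 79.3 FPKM in CTG and 133, 129.6 and 129 in CSp5C (log2 difference -0.84 ± 0.07, adjusted p = 8.82e-05). The 13 genes of the mitochondrial genome took 8.29% to 10.4% of the summed FPKM in CTG and 14.6% to 17.3% in CSp5C. Among them mt-Co1 stood at 5189, 4495 and 4338 FPKM in CTG and 10985, 9219.9 and 8507 in CSp5C (log2 difference -1.03 ± 0.14, adjusted p = 8.21e-04), and mt-Nd1 differed by -1.19. Ribosomal protein genes were not called for 18 of 27, with a median of -0.07, and the 6 lower ones became 2 without CSp5C replicate 3. Cholesterol synthesis genes were higher in TG for 9 of 18, and for 13 with the replicate block, with Sqle, squalene epoxidase, at 59.3, 54.4 and 53.0 FPKM in CTG and 33.3, 34.0 and 32.4 in CSp5C (log2 difference 0.72 ± 0.06, adjusted p = 9.63e-05). Of 14 genes often used as references 8 were not called. Hprt and Tbp differed by -0.12 and -0.16, whereas Sdha, Tfrc and Pgk1 were lower in TG.

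The lists of neighbouring tissue rested on few libraries. Of the 12 neutrophil and marrow genes only Mpo was called, at 24.7, 1.28 and 4.43 FPKM in CTG and 0.0891, 0.0527 and 0.215 in CSp5C (log2 difference 2.61 ± 0.82, adjusted p = 0.0343), and with the replicate number as a block its adjusted p was 0.0654. The call was also lost when CTG replicate 3 or any 1 CSp5C library was left out (adjusted p = 0.0654 to 0.0861). S100a8 stood at 278, 2.13 and 107 FPKM in CTG and 3.85, 2.14 and 2.85 in CSp5C (log2 difference 3.55 ± 1.58, adjusted p = 0.1004), with CTG replicate 2 inside the range of Sp5C, and was called higher without that library (adjusted p = 3.30e-04). Of 10 bone and cartilage genes 8 were higher in TG and 1 lower, and without CTG replicate 1 the counts were 4 and 2 of 7. Without CSp5C replicate 3 they were 4 and 1 of 10, and with the replicate block 6 and 1 of 10. The pituitary gene Gh stood at 40.1, 3.75 and 12.5 FPKM in CTG and 1.34, 0.844 and 2.32 in CSp5C (log2 difference 2.51 ± 0.75, adjusted p = 0.0283), highest in CTG replicate 1, and its call was lost without CTG replicate 3 or CSp5C replicate 1 or 2 (adjusted p = 0.0679 to 0.0836). Globin genes such as Hba-a1, whose near-identical copies share reads, were not called (log2 difference 0.81 ± 0.49, adjusted p = 0.203), but passed with the replicate block (adjusted p = 0.00197), and Hba-a1 without CTG replicate 3 (0.0455). Of 7 erythroid genes 1 was called higher in TG and 1 lower, against 6 and 1 with the block. Ttr, at 0.148, 0.195 and 0.254 in CTG, was called lower in TG (log2 difference -3.45 ± 1.08, adjusted p = 0.0339), and its adjusted p was 0.0757 with the block and 0.0682 to 0.0932 when any 1 library other than CSp5C replicate 2 was left out. Of 7 choroid plexus and ependyma genes that passed the filter 5 were called lower in TG and 1 higher, against 4 and 1 with the block. Of 9 cerebellar genes 7 were called lower and 2 higher, against 6 and 2 with the block. Without CSp5C replicate 3, 6 cerebellar genes were tested and 4 called lower. The part of these tissues in other results was not tested.

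Relatives within a gene family were often divided between the tissues. Among 36 pairs of related genes, 34 had both members tested, and in 17 of these the members were called in opposite directions, in 10 in the same direction and in 7 otherwise. The pairs were chosen with earlier results of these data in view, so that the count describes this choice alone. The widest gap was between the claudins of peripheral and central myelin, Cldn19 at 62.0, 67.8 and 55.4 FPKM in CTG and 0.189, 0.343 and 0.0419 in CSp5C and Cldn11 at 21.5, 10.5 and 7.69 FPKM in CTG and 234, 244 and 169.8 in CSp5C. Their differences were 5.72 and -4.03. The filaments Prph and Ina, given above, came next with a gap of 8.50.

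Ion and water channels showed the same division. Scn1a, the sodium channel of central interneurons and some sensory neurons, stood at 24.2, 32.4 and 34.8 FPKM in CTG and 71.4, 74.8 and 75.7 in CSp5C (log2 difference -1.27 ± 0.13, adjusted p = 2.17e-04), against the high TG level of Scn10a. Scn9a, Nav1.7 of nociceptors, stood at 55.5, 65.0 and 57.8 FPKM in CTG and 0.991, 0.978 and 1.74 in CSp5C and Scn2a at 2.20, 2.77 and 2.49 FPKM in CTG and 17.1, 19.3 and 29.5 in CSp5C, with differences of 4.77 and -2.68. Aqp1, a water channel of small sensory neurons, stood at 29.5, 31.3 and 24.2 FPKM in CTG and 0.246, 0.228 and 0.269 in CSp5C (log2 difference 4.55 ± 0.11, adjusted p = 5.92e-07), against the reverse for Aqp4. The leak channel Kcnk18, TRESK of sensory neurons, stood at 14.9, 14.3 and 11.6 FPKM in CTG and 0, 0.0120 and 0.0146 in CSp5C. Its relative Kcnk9 stood at 0.208, 0.469 and 0.400 FPKM in CTG and 17.1, 14.6 and 21.9 in CSp5C. In each of these pairs the groups did not overlap for either member. The POU factors Pou4f1 and Pou3f3 differed by 3.62 and -3.26.

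**Figure D4:**
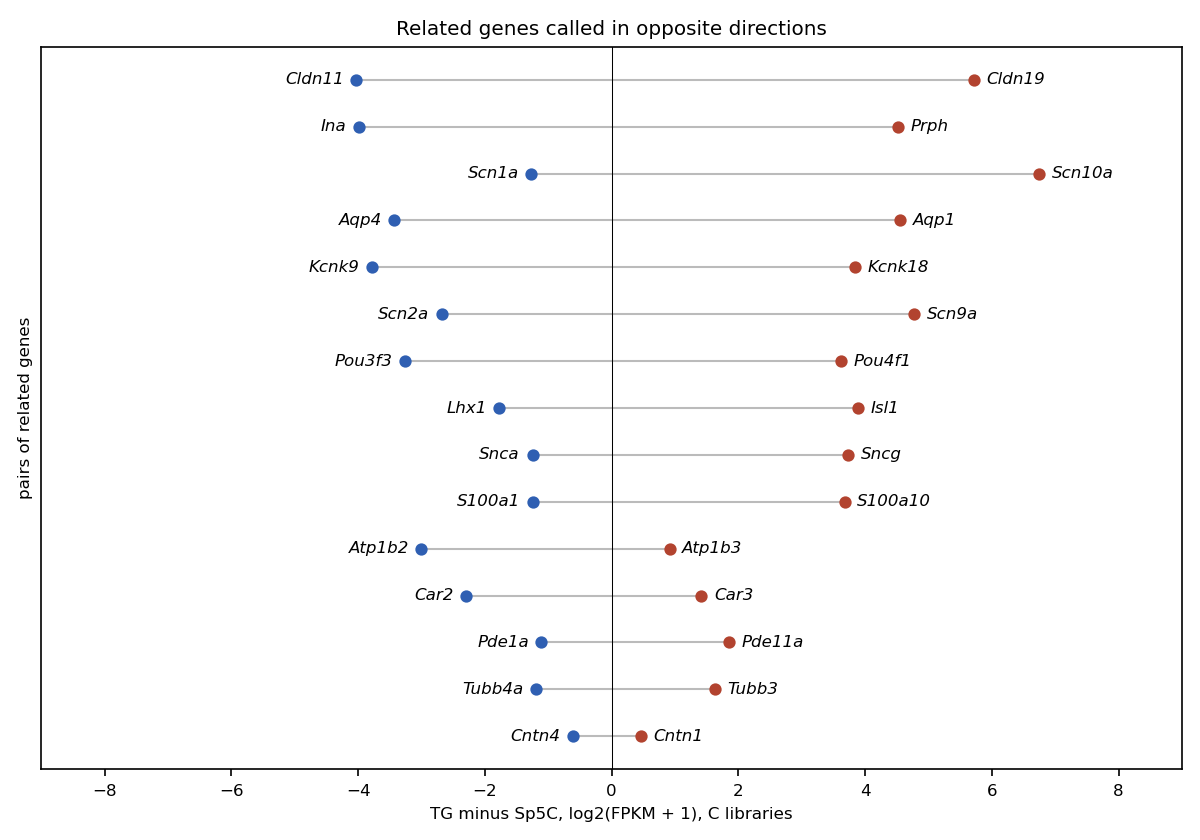
Log2 difference of TG minus Sp5C in the C libraries for both members, joined by a line, of 15 of the 17 pairs of related genes in which both were called and in opposite directions. Red points were higher in TG and blue points lower, and pairs are ordered by the gap between their members.

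Beside the level of a gene, the tissues differed in which of its transcripts was listed as abundant. The share of a gene's summed FPKM held by each transcript was tested for 10919 transcripts of 4016 genes. At an adjusted p under 0.05 and a difference of at least 20 percentage points 252 transcripts (2.31%) of 160 genes were called, 131 with a higher share in TG and 121 with a lower one. Without CTG replicate 1, CTG replicate 3 or CSp5C replicate 2 the count was 143, 166 or 150 transcripts. The replicate block ended all of these calls, with a smallest adjusted p of 0.0783, although each of the 252 kept an unadjusted p under 0.05. In the S libraries, which the test did not use, 238 of the 252 differed in the same direction and for 181 the S groups did not overlap, with a median size of 25.7 points against 30.5 in C. For 113 of the 160 genes the gene's own level was not called at a difference of 1 or more, and for 47 it was. Over all 13100 tested genes 18.9% were called at that size, so these genes were called no less often than genes at large. In 93 genes the leading transcript differed between the tissues, and in 74 of these the leading forms had different coding exons in the GENCODE M21 annotation of GRCm38. Both forms kept their direction without overlap in the S libraries in 48 of the 74. The same counts over all tested transcripts are not given, so these counts in S stand without a background. Short reads are divided among overlapping transcripts by estimation, so a share is less certain than a gene's level.

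The largest such difference that the S libraries shared was in Slc8a1, the sodium-calcium exchanger NCX1. Its level was lower in TG, at 5.36, 6.53 and 6.72 FPKM in CTG and 60.4, 65.4 and 61.2 in CSp5C (log2 difference -3.14 ± 0.09, adjusted p = 1.05e-06). The transcript Slc8a1-202 held 0% of it in each CTG library and 93.5%, 88.6% and 90.8% in CSp5C. The difference was -91.0 points (SE 3.33, adjusted p = 0.00102, but 0.0783 with the replicate block). In STG it was again at 0% throughout, and in SSp5C at 89.5%, 95.7% and 93.2%. Slc8a1-201, annotated with the coding exons alone, held 99.7%, 99.9% and 100% in CTG and 56.0%, 100% and 100% in STG. Both have 2910 coding bases, and they differ at both ends. Slc8a1-201 spans positions 81388691 to 81649607 of chromosome 17 and Slc8a1-202 positions 81388524 to 81738377. The part of either end in the estimated shares was not tested. Slc8a1-202 begins at position 81738377 of chromosome 17 on the minus strand, 10 bases from the start that RefSeq gives. The 250 bases before that start, chr17:81738388-81738637 (GRCm38.p6, minus strand), are shown because they lie upstream of the form listed in Sp5C and not in TG. No letter is capitalised, as no site in them was tested.
Slc8a1 upstream: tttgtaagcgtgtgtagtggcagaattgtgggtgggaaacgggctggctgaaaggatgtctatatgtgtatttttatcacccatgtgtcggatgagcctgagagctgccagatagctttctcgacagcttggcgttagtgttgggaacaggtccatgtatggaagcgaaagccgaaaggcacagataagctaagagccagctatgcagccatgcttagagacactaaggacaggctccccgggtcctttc

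Shtn1, shootin1, a protein of growing axons, was not called at the gene level, at 11.1, 10.4 and 9.15 FPKM in CTG and 10.5, 10.4 and 8.50 in CSp5C (log2 difference 0.06 ± 0.11, adjusted p = 0.683), but its forms differed. Shtn1-201 held 94.7%, 100% and 97.2% of it in CTG and 25.2%, 23.8% and 12.5% in CSp5C. The difference was 76.8 points (SE 4.60, adjusted p = 0.00221, but 0.0783 with the replicate block). The S libraries gave 85.7%, 91.8% and 100% in STG and 13.8%, 8.98% and 20.6% in SSp5C, again without overlap. Shtn1-201 has 1893 coding bases and Shtn1-202, the form of Sp5C, has 1368. Exons 15 and 16 of Shtn1-201, of 121 and 193 bases, are absent from Shtn1-202 and are shown in capitals with 12 bases of the neighbouring exons on either side. They lie on the minus strand of GRCm38 at chr19:58995018-58995138 and chr19:58990189-58990381.
Shtn1 exon 15: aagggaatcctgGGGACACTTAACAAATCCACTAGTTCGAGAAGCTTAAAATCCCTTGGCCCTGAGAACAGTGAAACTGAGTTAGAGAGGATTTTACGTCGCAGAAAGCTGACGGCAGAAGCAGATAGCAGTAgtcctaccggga
Shtn1 exon 16: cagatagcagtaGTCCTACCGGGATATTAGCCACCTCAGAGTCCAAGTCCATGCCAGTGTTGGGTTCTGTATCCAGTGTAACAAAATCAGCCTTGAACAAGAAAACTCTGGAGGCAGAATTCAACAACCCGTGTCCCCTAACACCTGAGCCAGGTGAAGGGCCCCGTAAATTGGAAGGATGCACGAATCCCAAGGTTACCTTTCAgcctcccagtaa

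Part of the difference was a matter of single exons. Between the leading forms, 38 internal coding exons of 32 genes were present in the form of a tissue and skipped between the same neighbours in the other. Of these 36 had a length that is a multiple of 3, with a median length of 69 bases, and 24 belonged to the form that led in Sp5C. The 14 exons of 11 genes whose forms differed by at most 2 coding exons, kept the frame and held in the S libraries were followed in each library. They were chosen after their values were seen, so their inclusion, the FPKM of transcripts with the exon over those with it or skipping it, is described and not tested. Inclusion was higher in Sp5C for 10 of them and in TG for 4.

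**Figure D5:**
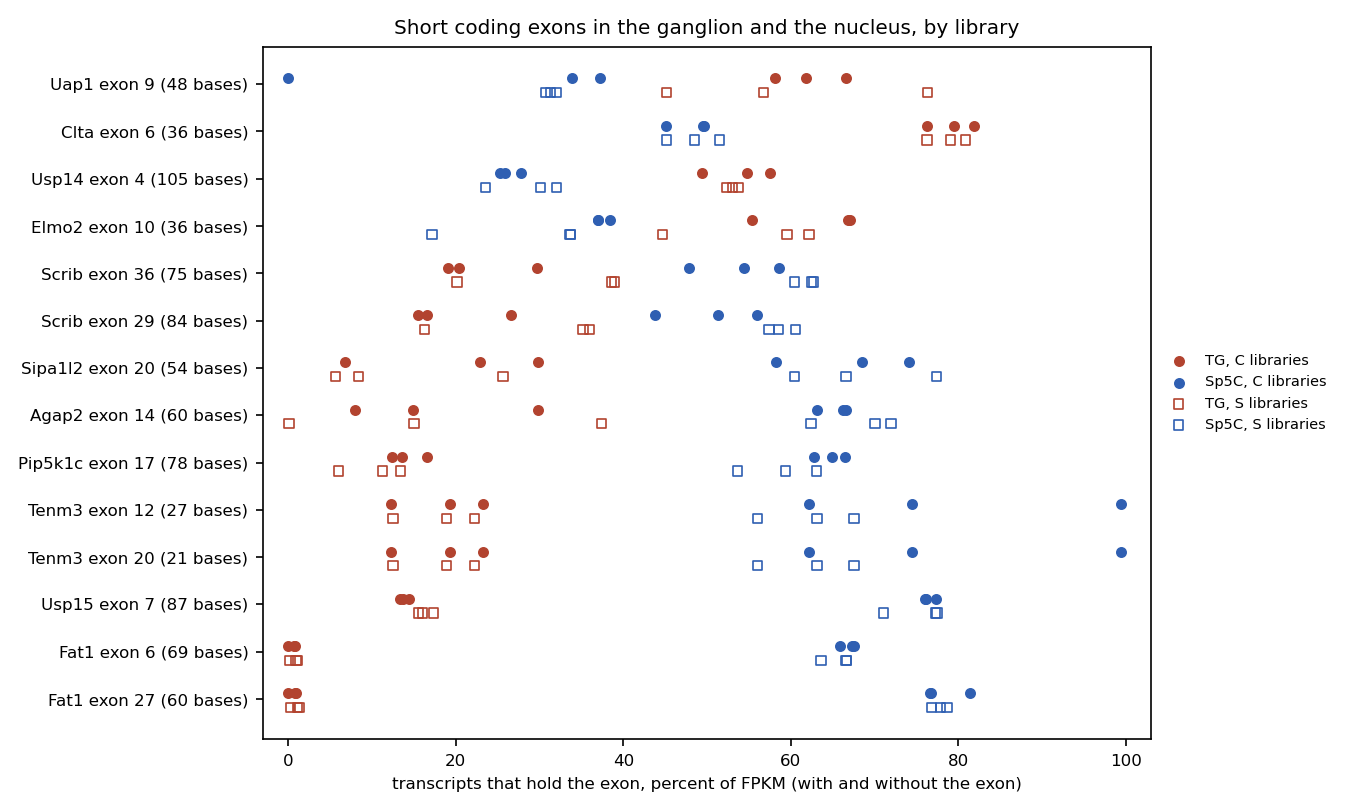
Inclusion in percent of 14 cassette exons in each of the 12 libraries, red for TG and blue for Sp5C, filled circles for the C and open squares for the S libraries, ordered by the difference between CTG and CSp5C. For each exon the TG and Sp5C points are apart in both the C and the S libraries. The exons came from genes with a called share in C and forms apart in S, so this separation follows largely from the choice.

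Fat1, an atypical cadherin, gave the widest gap, while the gene itself was not called (log2 difference 0.11 ± 0.06, adjusted p = 0.152). Its exon 27 of 60 bases, chr8:45047650-45047709 (GRCm38, plus strand), was included at 0.0186%, 0.964% and 0.790% in CTG and at 76.6%, 81.4% and 76.8% in CSp5C. Exon 6 of 69 bases, chr8:45012019-45012087, was included at 0.507% ± 0.430 in CTG and 66.9% ± 0.912 in CSp5C (SD, n = 3 libraries each). In Usp15, a ubiquitin protease, exon 7 of 87 bases, chr10:123153041-123153127 (minus strand), was at 14.5%, 13.7% and 13.3% in CTG and at 76.1%, 76.1% and 77.3% in CSp5C, and at 16.3% and 75.3% on average in STG and SSp5C. In Tenm3, a teneurin of synapse formation, the exons of 27 bases, chr8:48313238-48313264, and 21 bases, chr8:48287133-48287153 (minus strand), had the same transcripts and so the same value, 18.3% ± 5.56 in CTG and 78.7% ± 18.9 in CSp5C. CSp5C replicate 3, at 99.4%, was the highest. In Pip5k1c, the kinase that makes the lipid PIP2 at nerve endings, exon 17 of 78 bases, chr10:81317326-81317403 (plus strand), was at 14.2% ± 2.15 in CTG and 64.7% ± 1.88 in CSp5C.

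Clathrin light chain a, Clta, went the other way, with exon 6 of 36 bases, chr4:44031400-44031435 (plus strand), included at 79.5%, 81.9% and 76.3% in CTG and at 49.6%, 49.5% and 45.1% in CSp5C. The S libraries were at 78.7% and 48.4% on average. Elmo2, Uap1 and Usp14 were also included more in TG, at 63.1%, 62.2% and 53.9% on average against 37.5%, 23.7% and 26.3%. The CSp5C mean of Uap1 came from 33.9%, 0% and 37.2%, and its means were 59.4% in STG and 31.3% in SSp5C. Agap2, Sipa1l2 and the 2 exons of Scrib were included more in Sp5C, at 17.6%, 19.8%, 23.1% and 19.5% on average in CTG against 65.3%, 66.9%, 53.6% and 50.4%. Both exons of Scrib lie in Scrib-201, so their values are not separate measurements. In Kit, the stem cell factor receptor, the forms differ by 12 bases at the end of exon 9, chr5:75639147-75639158 (plus strand). The form without them held 49.4%, 45.7% and 63.5% in CTG and 3.97%, 4.34% and 2.16% in CSp5C, and 47.0%, 59.0% and 50.8% against 4.43%, 37.3% and 2.40% in the S libraries. The sequences below show what each form gains, the exon or the added bases in capitals and 12 bases of transcript on either side in lower case.
Fat1 exon 6: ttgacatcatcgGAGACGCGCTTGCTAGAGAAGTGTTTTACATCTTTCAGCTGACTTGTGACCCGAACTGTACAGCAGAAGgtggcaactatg
Fat1 exon 27: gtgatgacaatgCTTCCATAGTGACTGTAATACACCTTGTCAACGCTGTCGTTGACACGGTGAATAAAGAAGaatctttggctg
Usp15 exon 7: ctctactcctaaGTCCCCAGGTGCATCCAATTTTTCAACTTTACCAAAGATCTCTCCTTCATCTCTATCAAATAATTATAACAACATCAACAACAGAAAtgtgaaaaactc
Tenm3 exon 12: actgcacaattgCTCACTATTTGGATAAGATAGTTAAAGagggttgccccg
Tenm3 exon 20: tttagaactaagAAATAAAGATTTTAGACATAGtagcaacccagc
Pip5k1c exon 17: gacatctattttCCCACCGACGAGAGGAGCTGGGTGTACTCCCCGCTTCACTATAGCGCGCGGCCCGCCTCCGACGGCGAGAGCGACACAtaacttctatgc
Clta exon 6: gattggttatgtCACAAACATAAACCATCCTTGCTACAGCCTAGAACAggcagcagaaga
Kit added bases: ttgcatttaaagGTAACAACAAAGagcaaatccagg

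Not every transcript difference held in the S libraries. In Ldha, lactate dehydrogenase A, the form Ldha-202 held 11.2%, 11.8% and 12.1% in CTG and 90.5%, 90.5% and 97.7% in CSp5C. The difference was -81.2 points (SE 3.63, adjusted p = 0.00116, but 0.0783 with the replicate block). In SSp5C, however, it held 13.4%, 93.0% and 10.3%, close to the ganglion in 2 libraries. Zmym5-201 held 2.75%, 1.03% and 1.50% in CTG and 96.8%, 99.9% and 93.5% in CSp5C, but 8.99%, 2.08% and 19.4% in SSp5C. Acsl6-204 held 86.8%, 89.0% and 87.3% in CTG and 1.46%, 1.08% and 0.678% in CSp5C, against 85.1%, 86.8% and 1.60% in STG and 64.7%, 1.05% and 1.52% in SSp5C. In such genes the difference seen in C was not present in all S libraries. Trim36, whose 2 forms start at different exons, kept its direction, with Trim36-201 at 87.9%, 81.5% and 83.3% in CTG, 0.155%, 5.85% and 10.7% in CSp5C, 85.3%, 83.3% and 87.3% in STG and 5.98%, 30.7% and 17.7% in SSp5C.

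Differences of similar size between the tissues were found under both letters. The S libraries share no sample with the C libraries, and 62.8% of their tested genes were called, 19.1% by 1 or more. Across 12934 genes tested in both, the TG minus Sp5C differences correlated at r = 0.972, given as a description, with a slope of 0.983 and a median gap of 0.102. Of the genes called by 1 or more, 2217 were called in both on the same side, 91.0% of those of C and 89.6% of those of S. For 2433 of the 2471 C genes the S groups did not overlap in the same direction. The same count over all tested genes is not given, and lack of overlap was common, at 65.8% of all tested genes in C. The test of whether the tissue difference itself depended on the letter, over 12 libraries and 13081 genes, called 0 genes by limma, with a smallest adjusted p of 0.862, and 708 genes (5.41%) at an unadjusted p under 0.05. Without CTG replicate 1 it called 1 gene and without CTG replicate 2 it called 2. Igsf8 had one of the smallest p of this test, at 19.9, 21.7 and 21.1 FPKM in CTG and 18.2, 26.6 and 24.2 in CSp5C and at 19.97, 20.6 and 18.9 in STG and 49.0, 41.5 and 37.3 in SSp5C, with an adjusted p of 0.862. Usp53 was at 5.81, 6.40 and 5.47 FPKM in CTG and 11.96, 13.4 and 12.5 in CSp5C and at 7.05, 6.14 and 6.82 in STG and 8.21, 9.70 and 9.68 in SSp5C, with the same adjusted p.

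Some called genes lay side by side in the genome. Among 13048 pairs of neighbouring tested genes, both were called by 1 or more in the same direction in 358 and in opposite directions in 205. Of all tested genes 9.61% were called higher and 9.25% lower by 1 or more, so many such pairs arise wherever genes lie. No number expected from these shares is given, and clustering was not tested. There were 16 runs of 4 or more neighbours called in the same direction. The longest, chr17:34119541-34316674 (GRCm38), held 9 genes of antigen presentation higher in TG, from H2-DMa to H2-Eb1. Among them Tap1, the peptide transporter, stood at 8.72, 10.7 and 5.54 FPKM in CTG and 3.31, 3.21 and 1.49 in CSp5C (log2 difference 1.35 ± 0.29, adjusted p = 0.00764) and H2-Aa at 15.2, 15.4 and 13.4 FPKM in CTG and 5.03, 3.38 and 0.608 in CSp5C (log2 difference 2.17 ± 0.47, adjusted p = 0.00773), though reads of related class II genes may be shared. Runs of 6 and 5 genes higher in Sp5C were Hoxb8 to Hoxb2 (chr11:96281905-96354012) and Hoxa2 to Hoxa6 (chr6:52162417-52213336). A run of 5 higher in TG held the receptors Mrgpra2b, Mrgpra3, Mrgprx1, Mrgprb5 and Mrgprb4 (chr7:47463806-48199288), members of a multigene family whose reads may be shared. Mrgprb4, a receptor of fibres that respond to stroking, stood at 4.41, 4.77 and 6.39 in CTG and 0, 0.0282 and 0 in CSp5C.

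Genes higher in Sp5C were longer in the genome. The median span, exons and introns together, was 38.3 kb for genes lower in TG by 1 or more, 29.2 kb for those higher and 24.7 kb for the other tested genes, with 13082 of 13100 genes matched. Spans of 100 kb or more made up 29.9%, 19.1% and 14.2%. Within levels of 1 to 5, 5 to 20 and at least 20 FPKM, the medians were 34.9, 45.3 and 32.5 kb for genes higher in Sp5C against 23.3, 33.8 and 31.2 kb for those higher in TG, so that the gap was small among the most abundant genes. These medians are a description without a test.

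A few genes varied widely within a tissue. In CTG the largest spread on the log2 scale belonged to S100a8 and S100a9, then to Hist2h2aa1 at 0.226, 28.8 and 53.6 and Jchain, the joining chain of antibodies, at 294, 6.18 and 34.8. Ceacam10 stood at 1.50, 50.0 and 1.08 in CTG and 0.703, 0.742 and 0.688 in CSp5C, high in CTG replicate 2 alone, and at 30.8, 30.3 and 53.6 in STG. Several of the most variable genes of CSp5C were listed at 0 in single libraries among values well above 0. Ndufs3, a subunit of complex I that every cell uses, stood at 18.8, 12.7 and 0 FPKM in CTG and 25.3, 23.7 and 0 in CSp5C, Tango2 at 0 in all CTG libraries and 16.2, 0 and 19.0 in CSp5C, and Pgm2 at 9.95, 0.0304 and 13.5 FPKM in CTG and 9.31, 0 and 14.8 in CSp5C. A 0 in such a gene may be a failed estimate, so a 0 in these files does not show that a gene was silent. Of the tested genes, 8 were listed at 0 in all 3 CTG libraries and 10 in all 3 CSp5C libraries, among them the transcription factors Lhx5 and Neurod6 in CTG and the mast cell protease Mcpt4 and Pdpn, podoplanin, in CSp5C. They also held Tango2 and Fam91a1 in CTG, and Rims1 and Trmt2a in CSp5C, which were listed at 0 in 1 library of the other tissue too, so that the doubt about a 0 extends to all 3 libraries of a tissue.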

How the data were processed

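Total RNA of TG and Sp5C from C57BL/6 mice aged 8 weeks was depleted of ribosomal RNA and made into strand-specific libraries, per the labels' protocols. HISAT2, StringTie 1.3.1 and Cuffdiff 2.1.1 are named, per the submitters' processing notes. For every mRNA transcript the authors deposited FPKM per library; the genome build and read numbers were not stated. No read counts were used, so no count model was fitted.

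Transcripts were summed per gene identifier. Genes with a mean of at least 1 FPKM over the 6 C libraries entered limma 3.58.1 (R 4.3.3) on log2(FPKM + 1), with a mean trend, robust moderation and Benjamini-Hochberg adjustment. A gene was called at an adjusted p under 0.05. Transcript shares, in percent of the gene's FPKM, were tested in the same way for genes of at least 5 FPKM in each tissue and called at an adjusted p under 0.05 and a difference of at least 20 points. The test of C against S used 12 libraries. Tests were checked on simulated data.

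The members and lists were chosen with earlier results of these data known. The rule for named genes took up to 6 members of each list with the largest difference and any against its majority by at least 1, the 8 pairs of relatives furthest apart, the 15 highest and 15 lowest called differences without overlap, the 10 most abundant genes of each tissue, the 10 largest called share differences, the 5 smallest p of the test between letters in each direction and the 8 most variable genes of each group. Some genes that this rule names are not reported here. Further list members and the exons were chosen after their values were seen. Same-numbered TG and Sp5C libraries deviated together (residual correlations 0.333, 0.226 and 0.383), so the numbers may pair the libraries, which the labels do not state. All calls, standard errors and p-values come from the fit without this pairing unless the replicate block is named. A fit with the block is given for part of the calls that it changes. Alternatives were other pseudocounts, filters and scalings, leading transcripts alone, and leaving out each library. Sequences came from GENCODE M21 (GRCm38) and the upstream bases of Slc8a1 from RefSeq (GRCm38.p6), and no sequence from chromosome 18 is shown.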

Additional observations from a re-analysis of the deposited data

How the results depend on the processing

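For 254 named results, each compared under the alternatives that gave a value for it, 3892 comparisons kept direction and side of the threshold, 190 lost the call, 43 gained it and 30 changed sign. The cause of these changes was not tested. With a pseudocount of 5 the genes called by 1 or more were 630 higher and 641 lower in TG, and with limma's test against a difference of 1 (treat) they were 655 and 729, 1384 in all. Leaving out each library in turn gave 6364 to 7072 called genes, 1188 to 1314 higher and 1167 to 1241 lower by 1 or more in C. In S it gave 7420 to 7816, 1240 to 1385 and 1159 to 1238. It gave 0 to 2 genes in the test between letters (1 without CTG replicate 1, 2 without CTG replicate 2) and 143 to 203 transcripts by share, with 143 without CTG replicate 1, 166 without CTG replicate 3 and 150 without CSp5C replicate 2.

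With the replicate block 7914 genes were called, 1259 higher and 1209 lower by 1 or more, and 0 transcripts by share. Among the 254 named results the block ended 17 calls and gave 8. Most of the 17 were the 10 largest called share differences, and the rest included Mpo and Ttr, with the values given above. The 8 included Hba-a1, also given above, and Rpl34 (adjusted p = 0.0481). Outside the 254 named results, Hoxb8 lost its call with the block and Eya1, Eya2, Gabra2 and Oprm1 gained one, as given above.

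Several genes changed sign. Leaving out each library in turn gave -0.73 to 0.42 for Ccnb1ip1, -1.98 to 0.93 for Ndufs3, -1.22 to 1.20 for Pgm2, -1.95 to 0.18 for Pitpnm1, -0.23 to 1.87 for Ranbp1, -0.91 to 1.45 for Rpl34 and -0.076 to 0.069 for Zfp68. Quantile normalization gave 0.41 for Ccnb1ip1, -0.0072 for Pgm2, -0.0126 for Zfp68, 0.0562 for mt-Atp6 and 0.0141 for mt-Co2. Median-ratio scaling gave -0.0087 for Pgm2 and -0.0053 for Zfp68, and a pseudocount of 5 gave -0.0092 for Pgm2. The leading transcript alone gave -0.42 for Fdps, -0.86 for Kit, 0.40 for P2ry12, 2.63 for Rps27a and -0.0788 for Zfp68. Depth, near 22.7 to 32.4 M fragments by estimate, limits values under 0.1 FPKM, where few fragments stand behind a value.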
